A study of Rattus norvegicus with 15 samples.

Results

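Protease inhibitors were followed in dissociated cells of rat dorsal root ganglia (DRG) that had been exposed to a cell-permeable form of cAMP. The members were all probes whose gene symbol in the platform annotation was Slpi or A2m, or began with Serpin, Timp, Cst, Spink or Tfpi. The rule took 28 probes of 25 genes, out of 5088 probes and 4153 named genes on the array, and used no measured value. All 28 probes had a ratio on every array. A total of 22 genes had 1 probe, and Serpine2, Serpina3l and Serpina3c had 2 probes each.

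The cells came from L4 and L5 DRG of juvenile rats and were kept in Sato medium in wells coated with poly-L-lysine or myelin. Treated cultures received 1.5 mM dibutyryl cAMP (dbcAMP), and control cultures received the medium without it. Each 2-colour array compared treated RNA, labelled with Cy5, with control RNA, labelled with Cy3, at 1, 3, 6, 12 or 18 h, with 3 arrays for each time and 15 in all. A value above 0 on the log2 scale therefore meant more signal in treated cells. The labels call the first group 1 h, whereas their description of the treatment lists 0 h at that place. Which coating belongs to which array is not in them, and neither is whether arrays at one time derive from separate cultures. The p-values therefore measure only how far these arrays scatter, and that scatter may be technical. Dyes were not swapped, so a probe's dye bias, if any, is part of its ratio at each time. It drops out when times are subtracted only if it is the same on all arrays, which was not tested. Ratios hold no expression level, and no level was compared between genes.

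Proteases and their inhibitors set how much matrix, clotting factor and cell surface protein is cut around a cell. Serpins trap serine proteases by an irreversible change of shape, tissue inhibitors of metalloproteinases (TIMPs) block the enzymes that degrade matrix, and cystatins block cathepsins and related cysteine proteases. SLPI, a whey acidic protein family member, blocks neutrophil elastase and cathepsin G and is made by epithelia and leukocytes. In nerve, plasminogen activators are released by growing neurites, and protease nexin 1 (Serpine2) and neuroserpin (Serpini1) are serpins that act on them or on thrombin.

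Over all probes of an array, log2 ratios had an SD between 0.36 and 0.43 on 9 arrays and between 0.63 and 0.70 on 6, which were 6 h array 3, 12 h arrays 1 and 2 and all 3 arrays of 18 h. Median ratios lay between 0.997 and 1.02, and 28 to 105 probes had no value. The number that opens each probe identifier was read as its oligonucleotide plate. At 18 h, 14.2% of probes on plates up to 35 were called higher and 5.43% lower, against 3.53% and 23.2% on plates from 36 up. Of the inhibitor probes, 22 lay on plates up to 35, with 15 of these on plate 26, and 6 on the later plates. For the inhibitors, values centred on the plate are given where they change a call.

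Few inhibitors passed the test before 18 h, and Slpi and Timp1 were the first that did. By limma at an adjusted p under 0.05, 0 of 28 probes were called at 1 h, where 2.33% of all probes were called, and 0 at 3 h, where 2.87% were. Without adjustment 1 probe passed at 1 h and 1 at 3 h, beside 9.81% and 10.2% of all probes. At 6 h, 2 probes were higher, against 4.19% of all probes called in either direction and 1.84% called higher. At 12 h, 3 were higher, against 8.58% in either direction and 3.81% higher. At 18 h, 5 were higher and 2 lower, which is 25% of the members beside 22% of all probes, or 10.6% higher and 11.3% lower. The members' share at 18 h was thus near that of the array as a whole, and their median log2 ratio was 0.13 beside 0.01 for all probes. The methods' t-test with Benjamini-Hochberg adjustment called 0 of 28 at each time. Over all probes it called 0 at 1, 3, 6 and 12 h and 1 of 5006 at 18 h, so its 0 is not particular to the members. When limma was fitted to the 18 h arrays alone, Slpi was the 1 member called. That fit called 183 of 5006 probes, against 1101 in the model of all times.

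**Figure D1:**
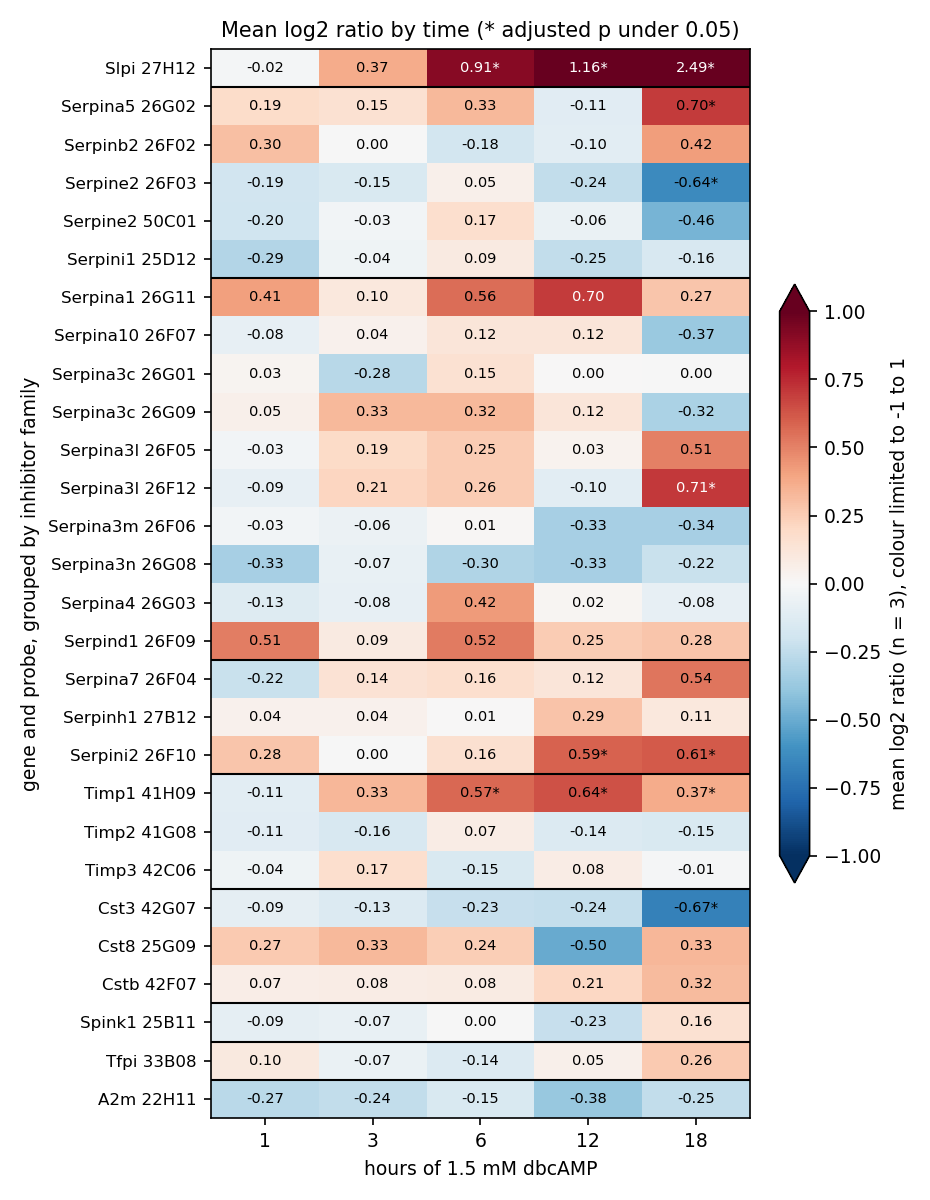
Mean log2 ratio, treated against control (colour and printed value, n = 3 arrays) for each of the 28 probes (rows, grouped by inhibitor family) at each time in hours (columns), with an asterisk for a limma adjusted p under 0.05. Asterisks stand at 6 h for Slpi and Timp1, at 12 h for these and Serpini2, and at 18 h for 7 probes.

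Slpi had the highest ratio of the inhibitors on all 3 arrays of 18 h. Its log2 ratio was 0.11, 0.01 and -0.18 on arrays 1, 2 and 3 of 1 h. It was 0.64, 0.11 and 0.36 at 3 h, and 1.24, 0.79 and 0.71 at 6 h. The 1 h arrays lay on both sides of 0, and every 6 h array lay above every 3 h array. At 12 h the arrays read 1.57, 0.80 and 1.12, and at 18 h 2.39, 1.89 and 3.20. The 18 h arrays lay above all earlier ones, whereas those of 6 and 12 h overlapped. A mean of 0.91 at 6 h is a fold of 1.88 (95% interval 1.37 to 2.57), and a mean of 1.16 at 12 h a fold of 2.24 (1.63 to 3.06). At 18 h the fold was 5.63, with an interval of 4.11 to 7.71. These intervals use a standard error of 0.21 that the model shares over all times. The SD of Slpi over the arrays was 0.15 at 1 h and 0.66 at 18 h. The 18 h interval thus borrows the smaller scatter of the other times.

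The steps of Slpi between neighbouring times were tested as differences. The log2 difference was 0.54 from 3 to 6 h (standard error 0.30, adjusted p = 0.999), 0.25 from 6 to 12 h (adjusted p = 0.794) and 1.33 from 12 to 18 h (95% interval 0.69 to 1.97, adjusted p = 0.0578, by limma). None of these passed, although the last interval did not include 0, and no other member passed between these times either. Of all probes, 0.0398%, 0.06% and 0.622% did. Without adjustment 0, 2 and 5 members had a limma p under 0.05, beside 4.02%, 10.6% and 14.4% of all probes. Between 18 and 1 h Slpi was the 1 member called, with an interval of 1.87 to 3.15 for its log2 difference, where 2.74% of all probes were called. It was also the 1 member whose ratio differed among the 5 times by limma's F test (F = 20.9, adjusted p = 0.00424), against 1.87% of all probes.

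The calls for Slpi at 6 and 12 h were lost when single arrays were left out. At 6 h, leaving out array 1 gave an adjusted p of 0.159, leaving out array 2 gave 0.0765 and leaving out array 3 gave 0.0717. At 12 h it was 0.0573 without array 1. The 18 h call was kept without each array in turn, with log2 ratios from 2.14 to 2.79. The ratio was 1.62 after all arrays had been scaled to a common spread (median absolute deviation). Without the arrays numbered 3, the difference between 18 and 1 h was 2.08 (adjusted p = 0.0550). The call by the F test was lost without the arrays numbered 1, 2 or 3 in turn, and with arrays scaled to a common spread.

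**Figure D2:**
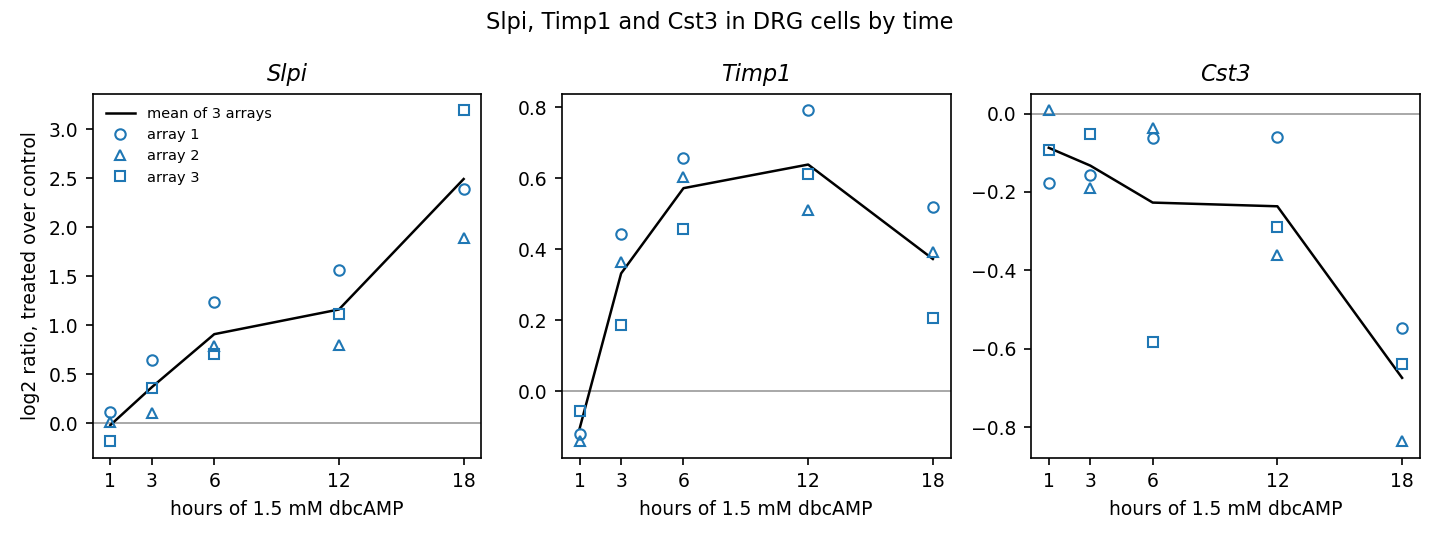
Time course of Slpi, Timp1 and Cst3, with the log2 ratio of treated to control signal on the vertical axis (its own scale for each gene) and hours of dbcAMP on the horizontal axis. Symbols are single arrays and the line joins the means, which end at 2.49 for Slpi and -0.67 for Cst3, while Timp1 is at 0.64 at 12 h and 0.37 at 18 h.

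SLPI is known from leukocytes and epithelia, so markers of other cells were read beside it. Of 7 probes for macrophages and leukocytes, 1 was higher (C1qb, 0.74) and 1 lower (Lyz2, -0.56) at 18 h, with array medians from -0.37 to 0.07. Of 17 probes for sensory neurons 1 was higher and 3 lower, and of 15 for Schwann cells and satellite glia 2 were higher and 4 lower. Over all probes, 10.6% were higher and 11.3% lower at 18 h. Fibroblast markers gave 1 higher and 2 lower of 11, with array medians from -0.24 to -0.13 at 18 h against -0.01 to 0.07 at 1 h. Endothelial markers gave 0 of 6 by limma, with 2 at an unadjusted p under 0.05, which 34.6% of all probes had. In RNA of mixed cells, fewer cells of a type and less RNA per cell cannot be told apart. The part of cell content in the inhibitors' values was not tested.

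Named probes outside the members were ranked by their Pearson correlation with Slpi over the 15 arrays, among 4244 probes measured on all of them. The 5 highest were Il1rl1 (r = 0.96), the receptor of interleukin 33, Ctsb (0.95), the cysteine protease cathepsin B, Pdpn (0.93), a membrane glycoprotein, Slc2a1 (0.93), the glucose transporter GLUT1, and Got1 (0.91), an aspartate aminotransferase. Their mean log2 ratios at 18 h were 1.52, 0.42, 0.88, 1.23 and 0.73. Among the inhibitors, the highest r was 0.60, for a probe of Serpina3l, and the lowest -0.66, for Cst3. These values describe arrays that share plates, dyes and times.

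Of the TIMPs, Timp1 was higher at 6, 12 and 18 h, and Timp2 and Timp3 were not called at any time. TIMP1 is secreted and blocks most matrix metalloproteinases, TIMP2 also takes part in the activation of pro-MMP2, and TIMP3 is bound to the matrix. Timp1 read -0.12, -0.14 and -0.06 at 1 h and 0.44, 0.36 and 0.19 at 3 h. It read 0.66, 0.60 and 0.46 at 6 h, 0.79, 0.51 and 0.61 at 12 h, and 0.52, 0.39 and 0.21 at 18 h. All 3 arrays of 1 h lay below 0 and all 12 later ones above it. The spread was small, with an SD of 0.04 to 0.16 at the 5 times. The fold was 1.49 at 6 h (95% interval 1.28 to 1.72, adjusted p = 0.00462), 1.56 at 12 h (1.34 to 1.80, adjusted p = 0.00158) and 1.29 at 18 h (1.12 to 1.50, adjusted p = 0.0157, limma, n = 3 arrays).

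Timp1 was the 1 inhibitor called between 12 and 1 h, where 0.3% of all probes passed. Its log2 difference was 0.74 (95% interval 0.44 to 1.05, adjusted p = 0.0458), and it missed the threshold in 10 of 14 alternatives, with a highest adjusted p of 0.918 when array 2 of each time was left out. The difference between 18 and 12 h was -0.27 (interval -0.57 to 0.04, adjusted p = 0.401), so no decline after 12 h was shown. At 6 and 12 h the call was kept without each array of that time in turn. At 18 h it was lost without array 1 (0.30, adjusted p = 0.107) and without array 2 (0.36, adjusted p = 0.0615). The median log2 ratio of plate 41, where the probe of Timp1 lies, was -0.36 at 18 h, and centred on the plate Timp1 stood at 0.74. Centring also gave a call at 3 h (0.56, adjusted p = 0.00877 by limma), turned the sign of the 1 h mean to 0.12, and ended the call between 12 and 1 h (0.74, adjusted p = 0.0758).

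Timp2 stayed between -0.16 and 0.07 in mean log2 ratio at the 5 times, and Timp3 between -0.15 and 0.17. At 12 h, when Timp1 was at 0.64, the arrays of Timp2 read -0.12, -0.37 and 0.07 (95% interval of the mean -0.39 to 0.11). Those of Timp3 read -0.06, 0.14 and 0.15 (-0.25 to 0.40). Centred on their plates at 18 h, Timp2 turned from -0.15 to 0.21 (adjusted p = 0.218) and Timp3 from -0.01 to 0.13 (adjusted p = 0.608), so neither has a settled direction there. On the 3 arrays of 12 h neither gene overlapped with Timp1. This difference between probes was not tested.

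Promoter windows from RefSeq (GRCr8, the 250 bases before the 1 start per gene that the sequence table uses) were found for 20 of the 25 genes, and were searched because cAMP acts on genes through CREB and its site. Slpi, A2m, Serpina10, Serpina3c and Serpind1 had no window and were not searched. In 12 of the 20 the start used lies inside the gene as RefSeq records it, so another start may lie further out. On both strands, the full cAMP response element TGACGTCA was in 0 of the 20 windows, against 1.59% of 33469 windows of all genes. Its half-site TGACG, which the full element contains, was in 2, those of Timp1 and Timp2, against 18.2% of all windows. The AP-1 site in its exact letters TGAGTCA was in 0, against 4.05%, and variants of these letters were not searched. The windows of Timp1, chrX:3771123-3771372 on the minus strand, and Timp2, chr10:104089215-104089464 on the minus strand, are shown because both hold the half-site whereas the ratios of the genes differed in their calls. Capitals mark the half-site, which lies 215 bases before the start used in Timp1 and, on the opposite strand, 179 bases before it in Timp2. The start used for Timp2 is the outer end of the gene record, whereas that for Timp1 lies 1456 bases inside it, so the Timp1 window is within the recorded gene.
Timp1: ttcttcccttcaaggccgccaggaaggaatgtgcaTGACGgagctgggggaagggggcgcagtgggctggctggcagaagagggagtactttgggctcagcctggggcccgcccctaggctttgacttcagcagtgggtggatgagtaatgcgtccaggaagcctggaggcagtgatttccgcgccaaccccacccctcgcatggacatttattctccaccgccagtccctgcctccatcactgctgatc
Timp2: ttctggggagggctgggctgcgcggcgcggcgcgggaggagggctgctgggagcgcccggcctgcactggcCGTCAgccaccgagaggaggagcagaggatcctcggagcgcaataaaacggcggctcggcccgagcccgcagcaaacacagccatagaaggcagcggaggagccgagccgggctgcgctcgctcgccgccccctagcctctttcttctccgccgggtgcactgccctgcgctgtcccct
A match of letters is no binding site, and the absence of a match concerns only this window.

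Of the serpins that act on plasminogen activators, 1 was higher and 1 lower at 18 h, and none of 5 probes was called before then. At an unadjusted limma p under 0.05, 0 passed at 1, 3 and 12 h, beside 9.81%, 10.2% and 23.2% of all probes. At 6 h Serpina5 alone passed, beside 17.7%. Serpina5 encodes protein C inhibitor, which also blocks urokinase. Its arrays read 0.01, 0.31 and 0.24 at 1 h, 0.17, 0.19 and 0.10 at 3 h, and 0.49, 0.02 and 0.47 at 6 h. At 12 h they read -0.37, 0.16 and -0.14, and at 18 h 0.72, 0.79 and 0.59. The 18 h arrays lay above all 12 others. The fold at 18 h was 1.62 (95% interval 1.35 to 1.95, adjusted p = 0.00125 by limma). From 12 to 18 h the log2 difference was 0.81 (0.44 to 1.19, adjusted p = 0.0539), and from 1 to 18 h 0.51 (adjusted p = 0.143), so the difference between times did not pass.

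Serpine2, protease nexin 1, blocks thrombin, urokinase and tissue plasminogen activator and is made by glia. Its probe 26F03 read -0.18, -0.19 and -0.20 at 1 h, -0.09, -0.69 and 0.92 at 6 h, and -0.57, -0.47 and -0.87 at 18 h. The 6 h arrays lay far apart, and those of 18 h lay below all arrays of 1, 3 and 12 h. Control signal was 1.55-fold that of treated cells at 18 h (adjusted p = 0.0419, limma, n = 3). The call was lost without any 1 of the 3 arrays, with adjusted p from 0.0734 to 0.189, and with the replicate number as a block (0.0614). The other probe, 50C01, read -0.30, -0.24 and -0.85 at 18 h and was not called (-0.46, adjusted p = 0.158). The probes had the same sign on 12 of 15 arrays, with r = 0.77.

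Serpini1, neuroserpin, is a neuronal inhibitor of tissue plasminogen activator. It read -0.59, -0.26 and -0.02 at 1 h, 0.13, 0.06 and 0.09 at 6 h, and -0.17, -0.28 and -0.02 at 18 h, and was not called at any time. Serpinb2, plasminogen activator inhibitor 2, had 1 high array at 18 h, with 0.10, 1.08 and 0.06 (0.42 ± 0.58, SD, n = 3, adjusted p = 0.295 by limma).

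Of the plasminogen activators, Plat was higher and Plau was not called. Plat, tissue plasminogen activator, read 1.04, 0.91 and 1.17 at 18 h (adjusted p = 1.56e-05) and was already called at 6 h (0.75) and 12 h (0.68, adjusted p = 0.00133, limma). Its log2 difference between 18 and 1 h was 0.86 (adjusted p = 0.00753). Plau, urokinase, read -0.56, -0.11 and -0.61 at 18 h and was not called (-0.43, adjusted p = 0.0746), though centred on its plate it was called lower (-0.56, adjusted p = 0.0202). The urokinase receptor Plaur was called at 6 h (0.49) and 18 h (0.39, adjusted p = 0.0173). At 18 h, then, the log2 ratio was positive for Plat and Serpina5 and negative for probe 26F03 of Serpine2, each past the test. Probe 50C01 of Serpine2 did not pass, and the call of 26F03 did not outlast the loss of any 1 array.

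**Figure D3:**
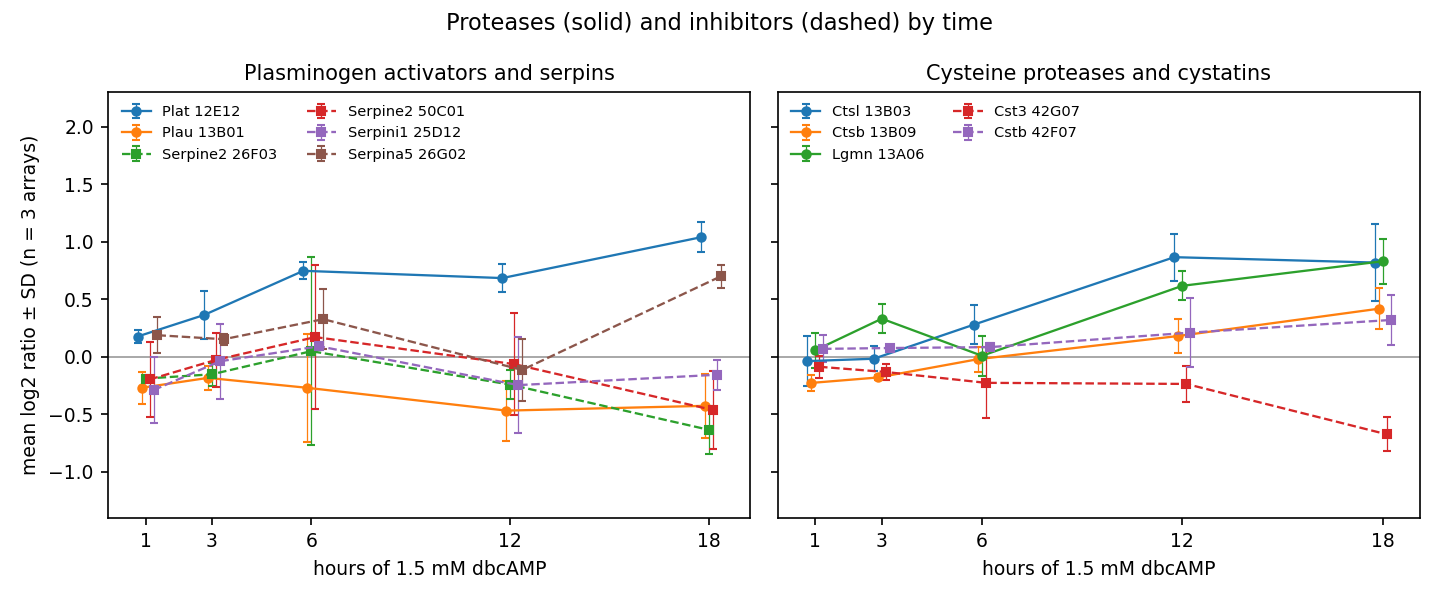
Means of the log2 ratio, treated to control (vertical axis, bars show SD over 3 arrays), by hours of dbcAMP (horizontal axis) for plasminogen activators with serpins that act on them (left) and for cysteine proteases with cystatins (right). Of 9 cysteine protease probes only the 3 called higher at 18 h are drawn, and the 6 not called are left out. Serpinb2 and Cst8 are not drawn either. Proteases have solid lines and inhibitors dashed lines, with points of 1 time set slightly apart, and at 18 h Plat is at 1.04 and Serpine2 26F03 at -0.64, Ctsl at 0.82 and Cst3 at -0.67.

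Of the cystatins, Cst3 was lower at 18 h, and Cstb and Cst8 were not called. Cst3, cystatin C, is the main secreted inhibitor of cathepsins. It read -0.18, 0.01 and -0.09 at 1 h, -0.16, -0.19 and -0.05 at 3 h, and -0.06, -0.04 and -0.58 at 6 h. It read -0.06, -0.36 and -0.29 at 12 h and -0.55, -0.84 and -0.64 at 18 h. Array 3 of 6 h fell in the range of 18 h, and the other 11 earlier arrays lay above it. Control signal was 1.60-fold that of treated cells at 18 h (log2 ratio -0.67, 95% interval -0.93 to -0.42, adjusted p = 0.00124 by limma, n = 3). The difference between 18 and 1 h was -0.59 (interval -0.94 to -0.23) and did not pass (adjusted p = 0.0836). Of the alternatives tried, this difference passed only without the 3 wide arrays of 6 and 12 h.

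Cstb, the cystatin of the cytosol, read 0.07, 0.40 and 0.49 at 18 h (0.32 ± 0.22, SD, adjusted p = 0.0673). Centred on its plate, whose median was -0.17, it passed the test (0.46, adjusted p = 0.0273 by limma). Cst8, a cystatin named from the male reproductive tract, read 0.13, 0.15 and 0.44 at 6 h, -0.33, -1.10 and -0.09 at 12 h, and -0.01, 0.04 and 0.96 at 18 h. It was above 0 on all arrays of 6 h and below 0 on all of 12 h, and passed at no time.

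Of 9 probes for cysteine cathepsins and legumain, 3 were higher at 18 h (Lgmn, Ctsl and Ctsb), 0 lower and 6 not called. Of all probes 10.6% were higher and 11.3% lower. The 6 not called ran from -0.32 for Ctss to 0.36 for Ctsc, and of these Ctsh (-0.17) was called lower when centred on its plate (-0.40, adjusted p = 0.0334 by limma). Lgmn, the lysosomal asparagine endopeptidase legumain, which cystatin C also blocks, read 0.61, 0.99 and 0.89 (adjusted p = 0.000195). Ctsl, cathepsin L, read 0.97, 1.05 and 0.44 (adjusted p = 0.000784), and Ctsb 0.34, 0.29 and 0.62 (adjusted p = 0.00783, limma). Ctsl and Lgmn were also called at 12 h, at 0.86 and 0.62. All 3 passed between 18 and 1 h, with log2 differences of 0.77 for Lgmn, 0.86 for Ctsl and 0.64 for Ctsb. The 3 called proteases and Cst3 were named by their calls on the 18 h arrays, so their opposite signs there follow from that choice.

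The serpins of clade A and D that act on other proteases gave 1 call in 10 probes, at 18 h. It was probe 26F12 of Serpina3l, a member of the antichymotrypsin family, which read 0.74, 0.36 and 1.02 at 18 h (fold 1.63, 95% interval 1.21 to 2.20, adjusted p = 0.0211 by limma). At 12 h the same probe had read -0.57, 0.39 and -0.13. Its call was lost without array 1 (adjusted p = 0.0836) or array 3 (0.138), and centred on the plate (0.55, adjusted p = 0.0576). The second probe of the gene, 26F05, read 0.66, -0.20 and 1.06 and was not called (0.51, adjusted p = 0.121). The probes had the same sign on 9 of 15 arrays, with r = 0.45.

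Serpina3l lies in a cluster of near-identical copies on chromosome 6, so a probe may have bound RNA of several of them. Its relatives on the array were not called. Serpina3n read 0.40, -0.65 and -0.42 at 18 h, and Serpina3m -0.48, -0.74 and 0.22. The probes of Serpina3c disagreed, at 0.40, -0.07 and -0.33 for 26G01 and -1.14, 0.10 and 0.08 for 26G09, with r = 0.01 over 15 arrays. None of these 4 probes was called at any time. At 18 h 0 of them had an unadjusted limma p under 0.05, which 34.6% of all probes had.

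A STAT site, TTCNNNGAA, was searched for as the motif of acute-phase genes, and was in 3 of the 20 windows, those of Cstb, Serpina3l and Serpina3n, against 7.67% of all windows. The windows of Serpina3l, chr6:129062956-129063205, and Serpina3n, chr6:129088142-129088391, both on the plus strand, are shown because the letters are shared by copies of which 1 was called and the other was not. Capitals mark the site, 129 bases before the start used in Serpina3l, which lies 61 bases inside the gene record, and 123 before that in Serpina3n, which is the end of the record.
Serpina3l: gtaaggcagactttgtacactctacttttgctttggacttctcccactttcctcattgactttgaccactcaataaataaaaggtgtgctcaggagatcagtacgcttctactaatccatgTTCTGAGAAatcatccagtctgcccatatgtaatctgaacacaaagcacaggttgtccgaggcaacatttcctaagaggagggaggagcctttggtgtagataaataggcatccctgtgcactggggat
Serpina3n: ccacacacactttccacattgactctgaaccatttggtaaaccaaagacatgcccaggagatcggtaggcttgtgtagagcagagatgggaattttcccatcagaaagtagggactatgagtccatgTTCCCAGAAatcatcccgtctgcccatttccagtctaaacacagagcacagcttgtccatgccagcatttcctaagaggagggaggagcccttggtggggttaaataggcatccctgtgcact
The N of the motif stands for any base, and again a match of letters is a description only.

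Serpina1, the inhibitor of neutrophil elastase known as alpha-1-antitrypsin, was unequal between arrays. It read 1.01, 1.12 and -0.02 at 12 h and -0.49, -0.19 and 1.50 at 18 h (0.27 ± 1.07, SD, n = 3). Array 3 was low at 12 h and high at 18 h, and the gene was not called at any time (limma adjusted p = 0.193 at 12 h and 0.572 at 18 h). Serpind1, heparin cofactor II, was even on the arrays of 1 h, at 0.54, 0.53 and 0.46, with an adjusted p of 0.301, and unequal at 18 h, at 0.01, 0.13 and 0.69. It passed at 1 h when arrays were scaled or weighted or when only that time was fitted. Serpina4, kallistatin, had its highest array at 6 h (0.04, 0.19 and 1.04). Serpina10, the inhibitor that works with protein Z on factor Xa, read -0.28, -0.44 and -0.40 at 18 h (adjusted p = 0.138) and passed when centred on its plate, whose median was 0.28 (-0.53, adjusted p = 0.0440).

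Of 3 serpins with other roles, Serpini2 was called. Serpini2, known from the pancreas as pancpin, read 0.48, 1.01 and 0.28 at 12 h and 0.24, 0.48 and 1.12 at 18 h. All 6 arrays were above 0, but the highest was array 2 at 12 h and array 3 at 18 h. By limma the 12 h fold of 1.50 had an adjusted p of 0.0496, and the 18 h fold of 1.53 one of 0.0201. Without array 2 the 12 h ratio was 0.38 (adjusted p = 0.304), without array 1 it was 0.64 (0.136), and without array 3 the 18 h ratio was 0.36 (0.185). Centred on the plate, both calls were lost (0.48 with an adjusted p of 0.0838 at 12 h, and 0.45 with 0.0563 at 18 h).

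Serpina7, thyroxine-binding globulin, which is no protease inhibitor, read 1.05, 0.60 and -0.04 at 18 h (adjusted p = 0.0812). Serpinh1, the collagen chaperone HSP47 and likewise no inhibitor, read 0.52, 0.25 and 0.08 at 12 h (adjusted p = 0.113) and 0.25, 0.01 and 0.06 at 18 h. Neither was called at any time.

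The remaining families gave no call. A2m, alpha-2-macroglobulin, which traps proteases of all classes and is an acute-phase protein of the rat, had a mean below 0 at all 5 times, from -0.38 to -0.15. Its arrays read -0.49, -0.17 and -0.47 at 12 h (adjusted p = 0.200) and -0.48, -0.48 and 0.23 at 18 h (95% interval of the mean -0.61 to 0.12, adjusted p = 0.335, limma). Spink1, the pancreatic trypsin inhibitor of the Kazal type, read 0.10, 0.13 and 0.23 at 18 h (adjusted p = 0.440). Tfpi, the Kunitz inhibitor of the tissue factor pathway, read 0.70, 0.33 and -0.23 (adjusted p = 0.204). Of these 3 probes, A2m at 12 h alone had an unadjusted limma p under 0.05, which 23.2% of all probes had at that time.

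**Figure D4:**
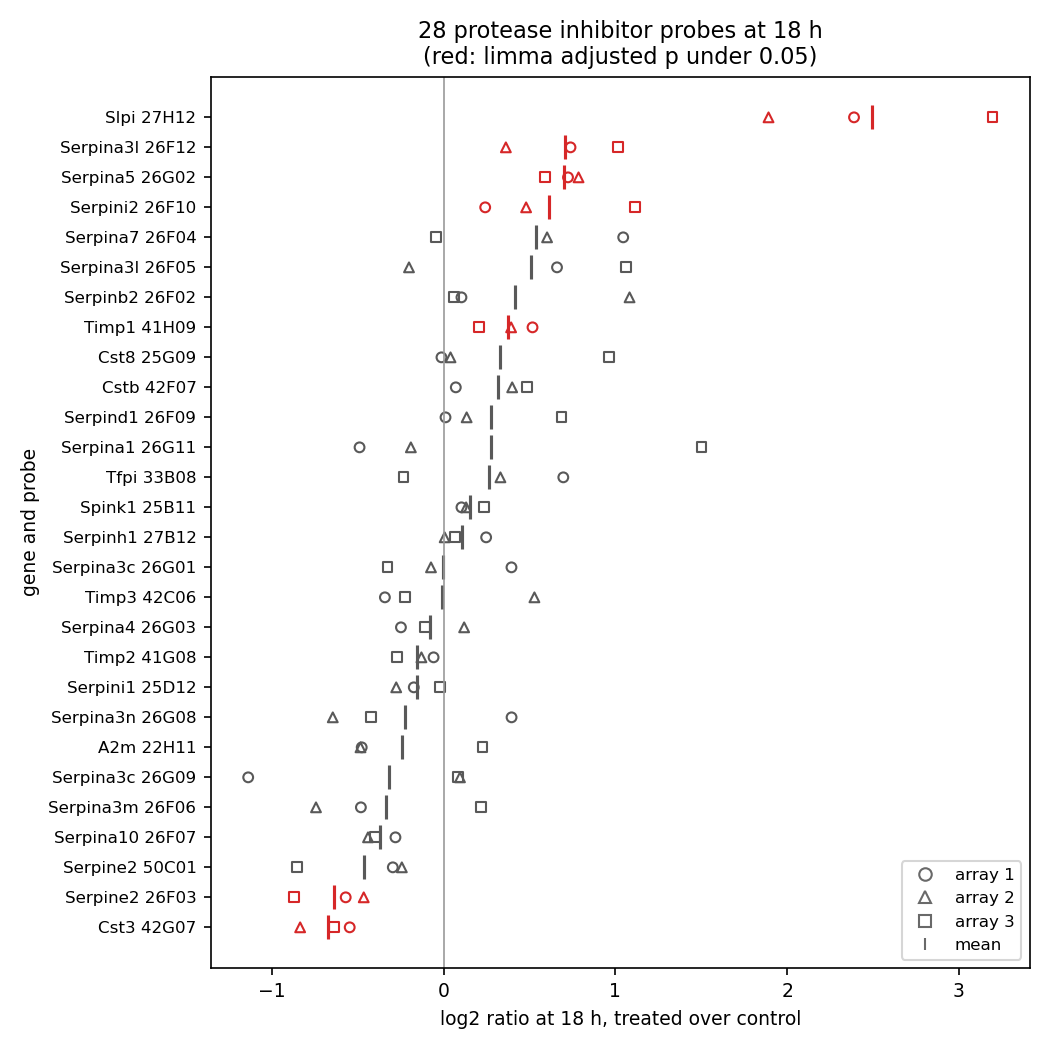
Log2 ratios at 18 h, treated to control (horizontal axis), for each inhibitor probe (rows, ordered by the mean), with 1 symbol per array, a bar for the mean and red for a limma adjusted p under 0.05. Slpi lies apart at the top, from 1.89 to 3.20, and Cst3 and Serpine2 26F03 lie at the bottom, while many grey rows have arrays on both sides of 0.

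The sign of the ratio was also compared between the arrays of a time. All 3 arrays were above 0 for 10 of 28 probes at 18 h and below 0 for 6, beside 25.1% and 24.1% of all probes. At 6 h the counts were 11 and 4, beside 20% and 17.5%, and at 12 h they were 4 and 4, beside 19.1% and 19.4%. At 1 h they were 5 and 4, beside 23% and 19.7%, and at 3 h 8 and 6, beside 24.3% and 20.6%.

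Target proteases and the receptors that clear protease complexes formed a list of 89 genes, of which 61 were measured by 64 probes. At 18 h, 16 probes were higher and 1 lower, beside 10.6% and 11.3% of all probes. The median log2 ratio of the list was 0.27, and that of all probes 0.01. Many probes of the list, those of Plat and Lgmn among them, lie on plates 12 and 13. On plates up to 35, 14.2% of probes were higher and 5.43% lower at 18 h. The median of the list was not centred on plates. At 12 h, 5 were higher and 3 lower, beside 8.58% of all probes in either direction. At 6 h, 2 were higher, beside 1.84%, and at 1 and 3 h 0 were called by limma, beside 2.33% and 2.87%. Between 18 and 1 h, 7 were higher and 0 lower, beside 2.74% of all probes in either direction. The count at 18 h ranged from 0 to 22 under the alternatives, with 8 when arrays were scaled and, centred on plates, 13 higher and 4 lower. The 0 came from the methods' t-test, which called 1 of 5006 probes at that time.

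The 3 probes of the list with the smallest p at 18 h were those of Plat, F2r and Lgmn. F2r, the thrombin receptor PAR1, read 1.08, 0.96 and 0.83 (adjusted p = 0.000154). The other proteases named here were chosen after their values were seen. Mmp12, the macrophage metalloelastase, was at 0.99 ± 0.05 (SD, n = 3, adjusted p = 0.000868, limma). The call in the other direction was probe 52B01 of Klk6, a kallikrein of oligodendrocytes and neurons, at -1.26 ± 0.39, which was also called at 12 h (-0.94). The other Klk6 probe, 12H05, read 0.50, -0.81 and 0.05 at 18 h (-0.09, adjusted p = 0.813) and -0.04 at 12 h, so the probes disagreed. Mmp2 and Mmp9, the gelatinases, were at 0.29 and 0.39 at 18 h and were not called (adjusted p = 0.344 and 0.111).

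Protease inhibitors outside the naming rule formed a list of 49 genes, of which 20 were measured by 21 probes. At 18 h, 0 were higher and 2 lower, beside 10.6% and 11.3% of all probes, and the median was -0.04. C5, a complement component related to alpha-2-macroglobulin in fold but not an inhibitor, read -1.92, -1.28 and -1.43 at 18 h (adjusted p = 1.52e-05). It was already at -1.20 at 1 h (adjusted p = 0.00104), and its difference between 18 and 1 h did not pass (-0.35, adjusted p = 0.446). Aplp2, an amyloid precursor relative with a Kunitz domain, was at -0.31 (adjusted p = 0.0455), and its value centred on its plate was 0.08. Itih4, an inter-alpha-trypsin inhibitor heavy chain, was the third by p, at 0.37 (adjusted p = 0.0533, limma). Under the alternatives 0 to 4 probes of this list were called at 18 h.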

How the data were processed

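RNA of dbcAMP-treated and control DRG cells was compared on 15 spotted oligonucleotide arrays, grouped by the time in the titles. The deposited values are linear ratios of treated over control signal, 1 per probe and array. How the authors corrected background, normalized or filtered is not given in the sources used here. No scanner intensity was analysed here, and the number of arrays limits the precision.

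The log2 of each ratio was taken with a pseudocount of 0. One limma 3.58.1 model (R 4.3.3) with a mean per time was fitted to all probes, each tested where at least 2 of 3 arrays had a ratio, two-sided, with Benjamini-Hochberg adjustment over all probes and a threshold of 0.05. The model gives each probe a single residual variance for all times. The p-values and intervals at 18 h, where all arrays were wide, therefore borrow scatter from times with narrower arrays. Times were compared by contrasts and by the moderated F test. The model was checked on simulated data. Intervals are at 95%.

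The members and lists were chosen with earlier results of these data known. Every member was accounted for. Described in full were Slpi, A2m, each member called in any comparison and, per family, the member with the largest absolute mean at 18 h. The comparisons between times other than 18 against 1 h, and the alternatives for the lists, were chosen after seeing the data. Alternatives were centring on arrays or plates, scaling to a common spread, fits of single times, array weights, a replicate block, the methods' t-test, stricter filters and thresholds, a robust prior, and leaving out arrays. Promoter windows and gene names came from RefSeq (GRCr8), and all 25 gene identifiers matched.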

Additional observations from a re-analysis of the deposited data

Results flagged for a closer look

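These inhibitors had log2 ratios that differed between times. By limma, Slpi differed between 18 and 1 h by 2.51 (adjusted p = 0.000492), with all 3 arrays of 18 h above all of 1 h, and its F over the 5 times was 20.9 (adjusted p = 0.00424). Without the arrays numbered 3 neither call was kept, and that of the F test was also lost without those numbered 1 or 2 and with arrays scaled. Timp1 differed between 12 and 1 h by 0.74 (adjusted p = 0.0458), in a comparison chosen after seeing the data. That call was lost in 10 of 14 alternatives, centring on plates among them. Timp1 was also above 0 on every array of 3, 6, 12 and 18 h and below 0 on every array of 1 h, with a largest difference of means of 0.744, although centred on its plate the 1 h mean was 0.12.

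For 6 other probes, all arrays of one time lay above 0 and all of another below it, and none of the differences tested passed. Cst8 was above at 3 and 6 h and below at 12 h, with a largest difference of means of 0.830, between 3 and 12 h, which was not tested (its difference from 6 to 12 h, -0.75, had a limma adjusted p of 0.412). Serpina4 was above at 6 h and below at 3 h (0.505). Probe 26G01 of Serpina3c was above at 6 h and below at 3 h (0.431). Serpini1 was above at 6 h and below at 1 and 18 h (0.381). Timp3 was above at 3 h and below at 6 h (0.318), and Tfpi above at 1 h and below at 6 h (0.235). The limma adjusted p of these 5 differences was between 0.961 and 0.999.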

How the results depend on the processing

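Of 209 values of called members tried again, 0 turned their direction, 134 kept their side of the threshold and 75 lost the call. The stricter threshold and filters, the robust prior, the methods' t-test and fits of single times leave a mean as it was. The other alternatives reuse the arrays by which the values were called, so the 0 was largely set in advance. Counts of called members that moved by more than 1.5 times were as follows. With arrays scaled to a common spread, 1 was called at 1 h, 1 at 3 h, 3 at 18 h and 0 by the F test. With array weights the counts were 1, 1, 3 and 2. Centred on plates, 1 was called at 3 h (Timp1). Fitting single times gave 1 at 1 h, 0 at 6 h, 0 at 12 h and 1 at 18 h. The methods' t-test with Benjamini-Hochberg adjustment gave 0 at 6, 12 and 18 h and 0 between 18 and 1 h. Over all probes it called 0, 0, 1 and 38. Without adjustment it called 4, 2, 5 and 6 members, beside 9.11%, 9.75%, 18.1% and 15.9% of all probes. At an adjusted p under 0.01, 1 was called at 6 h and 3 at 18 h. Without the 3 arrays of wide spread at 6 and 12 h, 1 was called at 6 h, 0 at 12 h, where the 1 array left was assumed to vary like the others, and 2 between 18 and 1 h. Leaving out 1 replicate gave 0 to 0 at 1 h and at 3 h, 1 to 2 at 6 h, 1 to 3 at 12 h, 5 to 6 at 18 h, 0 to 1 between 18 and 1 h (0 without replicate 3) and 0 to 0 by the F test.

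Arrays with the same replicate number did not deviate together (r from -0.06 to 0.06 over 30 pairs, 6 of 15 arrays closest to their own number). No pairing by number was thus seen, although this cannot show that the arrays were unpaired. With the replicate block, 6 members were called at 18 h, 2 at 12 h, 2 at 6 h, 0 at 1 and 3 h, 1 between 18 and 1 h and 1 by the F test. Timp1 was then not called between 12 and 1 h (adjusted p = 0.0800). With 3 arrays per time, a difference that missed the threshold was not shown to be absent. Among values not called, centring on plates turned the sign of several, Timp1 at 1 h and Timp2 and Timp3 at 18 h among them.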
